A study of Mus musculus with 6 samples.

Results

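Timd4, the TAM receptors Axl, Mertk and Tyro3, their ligands Gas6 and Pros1, and Mfge8 were taken by symbol from the count tables of 6 single-cell libraries of mouse liver, as 7 of the 18669 genes analysed. All 7 symbols were present in all 6 tables. Efferocytosis is the uptake of apoptotic cells by phagocytes, which recognise phosphatidylserine exposed on the dying cell. TIM-4, encoded by Timd4 and known as a marker of resident Kupffer cells, the macrophages of the liver sinusoids, binds phosphatidylserine directly. The tyrosine kinase receptors AXL, MERTK and TYRO3 bind it through bridging ligands, GAS6 for each of them and protein S (Pros1) for MERTK and TYRO3. MFG-E8 links phosphatidylserine to alpha v integrins on the phagocyte.

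The libraries (10x Genomics) were made from liver non-parenchymal cells, the fraction left once most hepatocytes are removed, of male C57BL/6J mice that entered the experiment at 8 weeks of age. All mice carried diet-induced nonalcoholic steatohepatitis (NASH) from a high-fat diet of 24 weeks, and there was no library from chow-fed mice. In the last 8 weeks, 3 libraries' mice received vehicle (DMSO) and 3 libraries' mice received ginkgetin, a plant biflavone, at 10 mg/kg/day by the intragastric route. The labels do not say that the libraries of a group came from separate mice, so p-values measure the spread between these libraries, which may be technical.

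Cells were named from marker genes that held none of the 7 genes, and the 7 genes were kept out of the clustering. Of 33168 barcodes, 27544 were kept, 3336 to 6918 per library, with library totals of 13128697 to 61796882 unique molecular identifiers (UMIs, each 1 captured mRNA molecule) and medians of 2483 to 8412 UMIs per kept cell. At most 85 barcodes were shared by 2 libraries. The third library of each group stood apart in depth and in which clusters its cells joined, so calls in macrophage-like, Kupffer-like and endothelial-like cells and over all kept cells are also given on replicates 1 and 2 only. Kupffer-like cells numbered 666, 384 and 408 in the vehicle libraries and 89, 234 and 514 in the ginkgetin libraries, Trem2-high macrophage-like cells 508, 310 and 687 against 13, 5 and 36, and endothelial-like cells 1010, 490 and 400 against 1223, 3090 and 1122. Levels are given as CPM, the gene's UMIs per 1000000 UMIs summed over the cells of 1 class in 1 library, and need no correction for gene length because a transcript is counted once. Values per library are listed in the order of replicates 1, 2 and 3.

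The promoters of Timd4 and Gas6 are shown because these were the 2 genes called higher with ginkgetin in Kupffer-like cells, and they differ in base composition and motifs. Timd4 (GRCm38, GENCODE vM21) lies on the plus strand at chr11:46810800-46844332 and Gas6 on the minus strand at chr8:13465374-13494490, where it overlaps Tmem255b on the other strand. How the authors' counting treated strand is not given in the sources used here, so reads of Gas6 and Tmem255b cannot be told apart with certainty. The sequences are from RefSeq (GRCm38.p6), 250 bases before to 50 after the start of the gene, 5′ to 3′ on the gene's strand, with Timd4 at chr11:46810549-46810848 and Gas6 at chr8:13494486-13494785. Capitals mark 4 motifs searched on both strands: the GC box core GGGCGG, the nuclear receptor half-site AGGTCA, the TATA-like run TATAA and the ETS-type run GAGGAA, and no matches overlap in either window shown.
Timd4: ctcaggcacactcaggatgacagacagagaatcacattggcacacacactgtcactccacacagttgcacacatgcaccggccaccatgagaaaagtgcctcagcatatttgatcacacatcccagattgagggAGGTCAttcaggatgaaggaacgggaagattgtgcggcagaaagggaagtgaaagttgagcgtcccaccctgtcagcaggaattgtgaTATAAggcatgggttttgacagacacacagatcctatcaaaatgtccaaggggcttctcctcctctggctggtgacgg
Gas6: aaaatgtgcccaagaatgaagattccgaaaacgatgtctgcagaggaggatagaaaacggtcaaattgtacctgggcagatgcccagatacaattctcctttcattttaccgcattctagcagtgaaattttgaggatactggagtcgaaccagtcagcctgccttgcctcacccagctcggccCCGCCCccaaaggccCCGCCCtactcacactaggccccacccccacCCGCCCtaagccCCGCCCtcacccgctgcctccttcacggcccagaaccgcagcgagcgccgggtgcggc
The Timd4 window held 1 AGGTCA (found in 16.3% of 32851 promoters of this length) and 1 TATAA (24.9%) and no GGGCGG (35.7%), at a GC content of 50.7%. Gas6 held 4 matches to GGGCGG at 58.3% GC. GGGCGG was also present in the windows of Axl (2 matches), Mertk (4), Tyro3 (6), Pros1 (5) and Mfge8 (4), and GAGGAA (28.3%) in those of Axl and Mfge8. A window without a match lacks only these letters, and a match is a description of the sequence, not a binding site.

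Timd4 was a Kupffer-like transcript with a mean of 234 CPM over the 6 libraries, and its range there did not overlap that of the next class, Trem2-high macrophage-like cells (9.63 CPM). All later neighbours in the order overlapped, and T cell-like and endothelial-like cells had at most 1.9 CPM in any library. Axl was highest in Kupffer-like cells (590 CPM) and Trem2-high macrophage-like cells (438 CPM), whose ranges overlapped, followed at a distance by stellate-like cells (136 CPM) and monocyte-like cells (109 CPM). Mertk was shared between Kupffer-like cells (213 CPM), endothelial-like cells (135 CPM) and Trem2-high macrophage-like cells (102 CPM), with overlapping ranges between each neighbouring pair. Tyro3 was scarce, with 28, 12 and 14 UMIs in all kept cells of the vehicle libraries and 19, 20 and 49 in those of the ginkgetin libraries. Macrophage-like cells, the Kupffer-like and Trem2-high cells together, held 2 of these UMIs, 1 in vehicle replicate 1 and 1 in ginkgetin replicate 3. The highest mean levels of Tyro3 were 6.16 CPM in stellate-like cells and 4.99 CPM in T cell-like cells, with overlapping ranges.

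Among the ligands, Gas6 was by far highest in cholangiocyte-like cells, the epithelium of the bile ducts, at 1423, 1428 and 970 CPM with vehicle and 1401, 1137 and 1666 CPM with ginkgetin. This range did not overlap that of the next class, endothelial-like cells, whose mean was 205 CPM and which overlapped stellate-like cells (197 CPM). A small cluster of 105 cells led by Gsn, Igfbp6 and Dpt, which stayed unnamed, also carried Gas6 at 656 to 1664 CPM. Pros1 was highest in endothelial-like cells (329 CPM), above stellate-like cells (175 CPM) and Kupffer-like cells (48.2 CPM) with no overlap at either step. Mfge8 was highest in cholangiocyte-like (548 CPM), stellate-like (420 CPM) and endothelial-like cells (165 CPM), with overlap between neighbours, while Kupffer-like cells held at most 23.2 CPM.

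**Figure D1:**
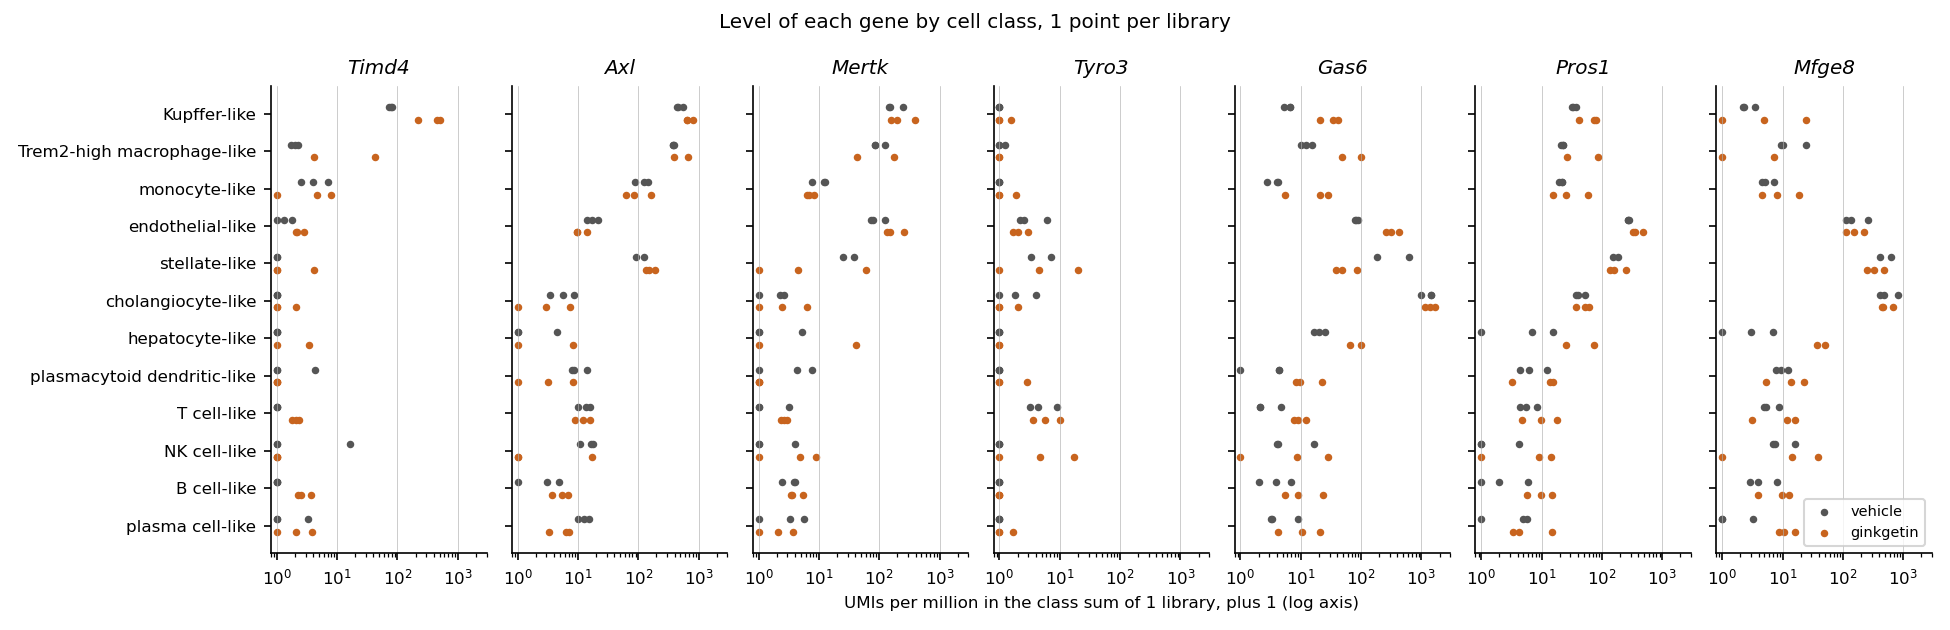
Level of each of the 7 genes (CPM plus 1, log axis) in the marker-defined cell classes, 1 point per library with 10 or more cells of the class, coloured by group. Timd4 stands alone in Kupffer-like cells at a mean of 234 CPM, Gas6 peaks in cholangiocyte-like cells at 1338 CPM and Pros1 in endothelial-like cells at 329 CPM, while the highest level of Tyro3 in any of these classes is 18.9 CPM, on 1 UMI.

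The genes whose levels were most alike over the 69 sums of 1 class in 1 library, among 8740 genes, are given as a description. Points of 1 library share its depth, and each Pearson correlation is of log2(CPM + 10). For Timd4 they were Gbp2b (r = 0.95), the scavenger receptor Marco (0.94) and Pcolce2 (0.94), for Axl the lipase Lpl (0.91), Acp2 (0.90) and the macrophage marker Adgre1 (0.88), and for Mertk Ptgs1 (0.93), Clec1b (0.90) and Scamp5 (0.90). Among the ligands, Gas6 was followed by Cyp2j6 (0.92), Cyp2d22 (0.90) and Pdgfd (0.90), Pros1 by the BMP receptor Bmpr2 (0.93), Cdc42ep2 (0.92) and Myo10 (0.92), and Mfge8 by Tead1 (0.96), Agrn (0.94) and Sgce (0.94). Tyro3, whose mean was under 10 CPM, had Unkl (0.62), Esyt2 (0.57) and Kcnj8 (0.57). Within the 7 genes, Gas6 and Mfge8 were most alike (0.87), followed by Axl with Mertk (0.69) and Pros1 with Mfge8 (0.69). Timd4 with Axl gave 0.66 and Mertk with Pros1 gave 0.63, whereas Gas6 with Axl gave -0.10.

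To compare the groups, UMIs were summed per library and class and tested over all genes with edgeR's quasi-likelihood test, and a gene was called when its Benjamini-Hochberg adjusted p was under 0.05 and its fold change over 2. In Kupffer-like cells, Timd4 was present at 72.5, 77.9 and 79.6 CPM with vehicle and at 455, 219 and 498 CPM with ginkgetin. The 2 groups did not overlap, and each ginkgetin library was above each vehicle library. The means were 76.7 ± 3.72 and 391 ± 150 CPM (SD, n = 3), and the log2 fold change was 1.94 (standard error 0.31, adjusted p = 0.0103 in edgeR). Gas6 was lower in these cells but moved the same way, from 5.6, 4.3 and 5.5 CPM to 20.1, 40.2 and 33.6 CPM. Its log2 fold change was 2.22 (standard error 0.32, adjusted p = 0.00795 in edgeR), on 40, 12 and 42 UMIs against 5, 26 and 59 UMIs. Of the 5 genes tested in Kupffer-like cells, 2 were called higher and none lower, where 4.81% of the 9038 genes tested were called higher and 4.46% lower. On replicates 1 and 2 only, the log2 fold changes were 1.77 for Timd4 and 2.32 for Gas6, and both were called.

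Neither TAM receptor tested in Kupffer-like cells was called. Axl was at 439, 454 and 540 CPM with vehicle and 645, 649 and 816 CPM with ginkgetin, and the groups did not overlap on this scale. In edgeR, which scaled the libraries by the trimmed mean of M values (TMM) and so against the bulk of genes, the log2 fold change of Axl was 0.16 (SE 0.23, adjusted p = 0.659). Mertk, at 147, 142 and 245 CPM against 157, 199 and 385 CPM, overlapped between the groups with a log2 fold change of 0.08 (standard error 0.30, adjusted p = 0.902 in edgeR). For Pros1 the values were 35.8, 30.5 and 32.7 CPM against 40.3, 77.2 and 72.9 CPM, which do not overlap, with a log2 fold change of 0.58 (adjusted p = 0.151 in edgeR). Mfge8 and Tyro3 had too few UMIs in Kupffer-like cells to be tested. Scaling on library totals in place of TMM, which is the scale of the CPM values, moved the median log2 fold change of all genes tested in Kupffer-like cells from 0.05 to 0.48, with 89.7% of 1414 calls higher against 51.9% of 838. On that scale Axl (0.57, edgeR adjusted p = 0.116) and Mertk (0.50, edgeR adjusted p = 0.334) stayed near the median of all genes, Timd4 (2.35) and Gas6 (2.65) were far above it, and Pros1 passed the call at 1.008 (edgeR adjusted p = 0.0353).

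**Figure D2:**
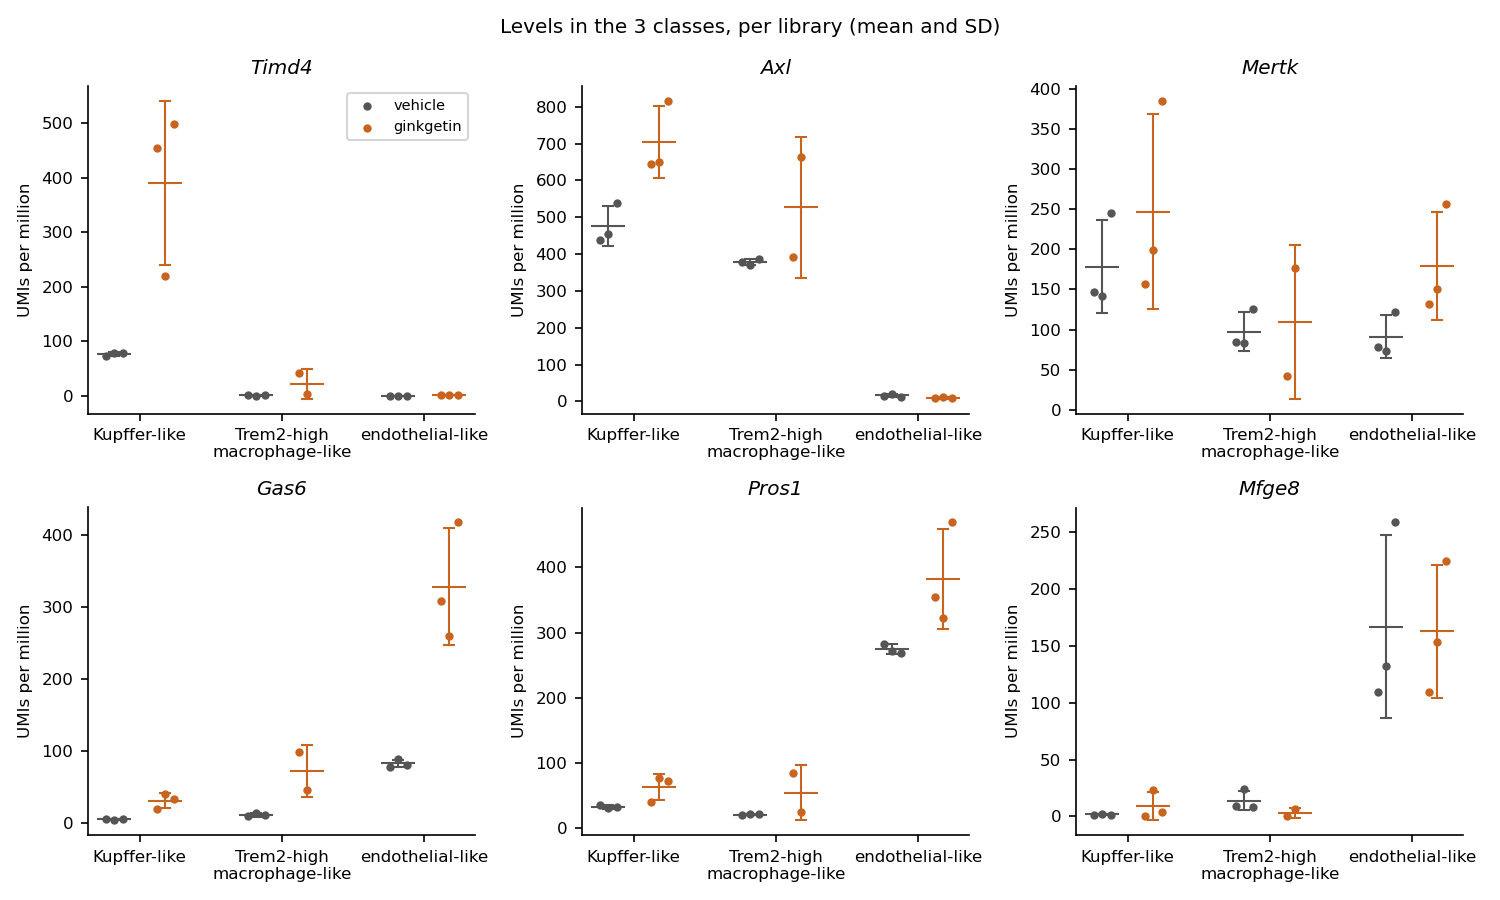
Level (CPM, linear axes from 0) of Timd4, Axl, Mertk, Gas6, Pros1 and Mfge8 in Kupffer-like, Trem2-high macrophage-like and endothelial-like cells, 1 point per library with the mean and SD of each group. In Kupffer-like cells Timd4 rises from 76.7 to 391 CPM without overlap of the groups, and in endothelial-like cells Gas6 rises from 82.8 to 328 CPM.

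Different clusters held most Kupffer-like cells of each group. Of the vehicle cells 65.7% were in a cluster led within the macrophages by Ctla2b, Plac8 and Fabp7, 24.9% in one led by Csrp1 and Gdf15 and 6.65% in one led by Cxcl10 and Cxcl9. Of the ginkgetin cells 58.2% were in a cluster led by Marco and Cd163, 485 of whose 488 cells came from ginkgetin replicate 3, and 37.3% in one led by Jchain, Aqp1 and the endothelial genes Ptprb, Ehd3 and Kdr, mostly from ginkgetin replicates 1 and 2. Timd4 was at 76.4, 82.5 and 96.5 CPM in the 3 vehicle-rich clusters and at 498 and 229 CPM in the 2 ginkgetin-rich clusters, so both of the latter were above all of the former. Gas6 followed the same split, with 4.19 to 5.63 CPM in the former and 34.1 and 29.3 CPM in the latter. Markers of Trem2-high macrophages moved with the groups in Kupffer-like cells. The summed level of the 7 markers was 3379, 2661 and 3408 CPM with vehicle and 580, 853 and 494 CPM with ginkgetin, without overlap, with none of the 7 at 0 in the vehicle libraries and 1 of them (Atp6v0d2) at 0 in ginkgetin replicates 1 and 2. Trem2 itself, a lipid-sensing receptor, was at 680, 703 and 744 CPM against 28.2, 114 and 34.2 CPM. The 7 Kupffer markers summed to 13167, 13410 and 15963 CPM against 14924, 11159 and 21195 CPM, which overlap. Timd4 was near 1 CPM in the Trem2-high cells of the vehicle libraries, and the part of this shift in the Timd4 and Gas6 values was not tested. A cluster of 24 Kupffer-like cells led by the neutrophil genes S100a9, S100a8 and Retnlg, 19 of them from vehicle, had 39.6 CPM of Timd4. Its Gas6 was at 16.5 CPM on 5 UMIs, above the range of the 3 vehicle-rich clusters given.

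Endothelial transcripts were also more abundant in the Kupffer-like cells of the ginkgetin libraries. The summed level of 9 endothelial markers was 254 to 298 CPM with vehicle and 967 to 1539 CPM with ginkgetin, with none of the 9 at 0 in any library, and 32.6 to 52.2% against 44.9 to 81.6% of cells had 2 or more of them. Timd4 itself was nearly absent from endothelial-like cells (0 to 1.9 CPM). Gas6 is an endothelial transcript, and per 100 endothelial marker UMIs the Kupffer-like cells held 2.22, 1.62 and 1.86 Gas6 UMIs with vehicle and 2.08, 2.61 and 3.24 with ginkgetin, while endothelial-like cells held 0.65 to 0.83 and 1.78 to 2.22. Cholangiocyte-like cells had 970 to 1666 CPM of Gas6, and the 6 cholangiocyte markers summed to 3.96 to 8.86 CPM in Kupffer-like cells with vehicle and 9.68 to 20.1 CPM with ginkgetin, without overlap. Of these 6 markers 1 was at 0 in each vehicle library and 1 to 3 in the ginkgetin libraries, at most 0.26% of cells held 2 or more, and their part in the Gas6 result was not tested. T cell-like cells, a class not known as a source of Gas6, went from 1.1, 1.1 and 3.7 CPM to 8.0, 11.2 and 6.8 CPM (log2 fold change 2.09, edgeR adjusted p = 0.233), beside endothelial marker sums of 74.4 to 91.7 CPM and 170 to 866 CPM. The part of endothelial transcripts in the Gas6 result was not tested further than by leaving cells out. Without cells that held 2 or more endothelial markers, an alternative chosen after seeing the data, the log2 fold changes in Kupffer-like cells were 2.30 for Timd4 and 2.71 for Gas6, and both stayed called. The cut depends on UMIs per cell, which were fewer in the ginkgetin libraries as given below, so kept cells may still hold endothelial transcripts. The endothelial marker level left in them was not measured.

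Depth per cell differed between the groups, with medians of 9890, 6597 and 19602 UMIs per Kupffer-like cell in the vehicle libraries and 2194, 2058 and 2210 UMIs in the ginkgetin libraries. Each cell was therefore thinned to 1000 UMIs before cells with a UMI were counted, which left out 1 shallower cell of vehicle replicate 3 and 59 of ginkgetin replicate 3. The share of Kupffer-like cells with a Timd4 UMI was then 5.71, 7.81 and 8.35% with vehicle and 34.8, 22.6 and 35.8% with ginkgetin. The groups did not overlap, and the means of 7.29% and 31.1% differed by 23.8 percentage points (two-sided exact permutation test, p = 0.1, the smallest that 3 against 3 libraries allow). Unthinned, the shares were 20.1, 21.1 and 29.4% against 61.8, 41.0 and 63.2%. Among T cell-like cells, a class without known Timd4 expression, the thinned share was at most 0.391% and the unthinned share at most 0.522% in any library.

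The thinned shares of Axl and Mertk overlapped between the groups. Cells with an Axl UMI made up 38.8% and 45.2% of Kupffer-like cells in the 2 groups (exact permutation p = 0.4), and cells with a Mertk UMI 18.4% and 22.0% (exact permutation p = 0.5). Without thinning both had the opposite order, 93.8% against 76.1% for Axl and 74.6% against 44.1% for Mertk. The shares of Pros1 and Gas6 did not overlap and were higher with ginkgetin, as for Timd4. Pros1 was found in 3.49% and 7.07% of thinned Kupffer-like cells (exact permutation p = 0.1), against 30.2% and 17.0% unthinned. Gas6 was found in 0.615% and 3.94% (exact permutation p = 0.1), next to 0.323% and 1.22% in T cell-like cells thinned to the same depth. Only a small minority of Kupffer-like cells thus held a Gas6 UMI at this depth in either group.

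**Figure D3:**
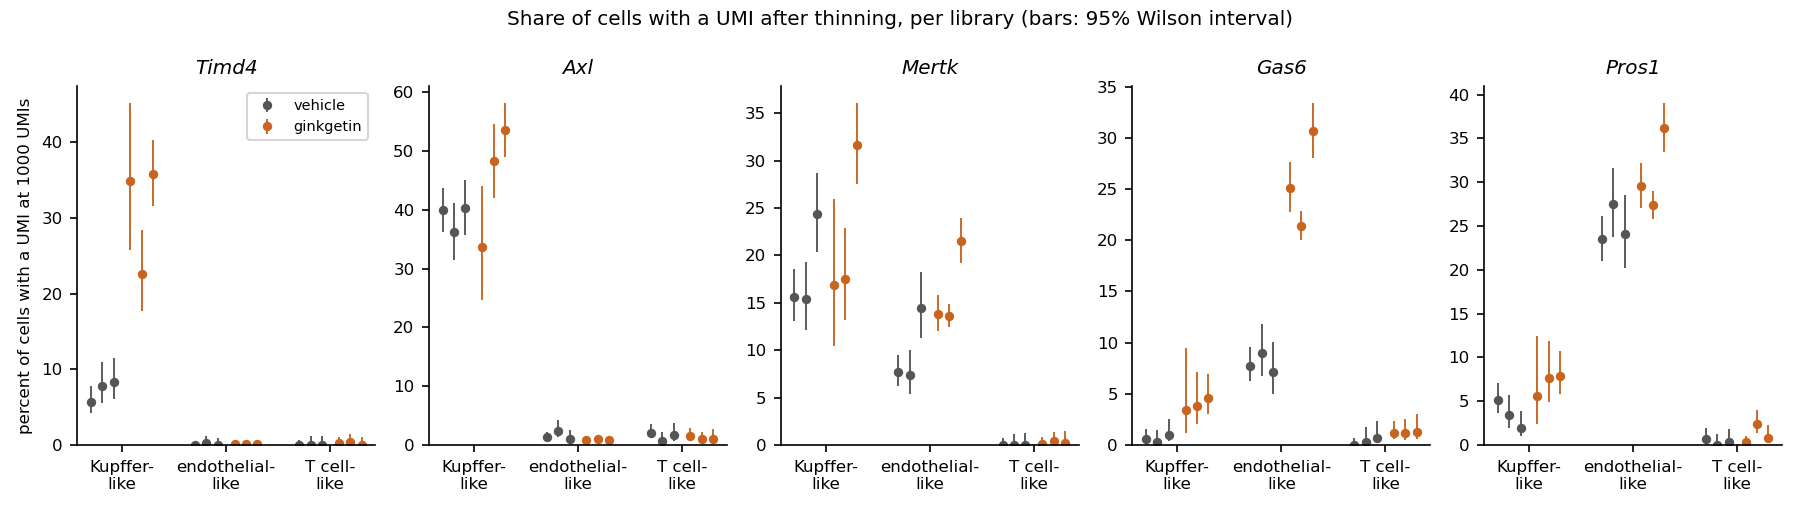
Share of cells (%) with at least 1 UMI of Timd4, Axl, Mertk, Gas6 or Pros1 after thinning each cell to 1000 UMIs, in Kupffer-like, endothelial-like and T cell-like cells, 1 point per library with its 95% Wilson interval, which covers counting error only. The Timd4 shares of the ginkgetin libraries lie between 22.6 and 35.8%, all above the 5.71 to 8.35% of the vehicle libraries.

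Within Kupffer-like cells, those with a Timd4 UMI were compared with those without in each of the 6 libraries, after thinning. Tyro3 had no UMI on either side in any library, and Mfge8 had none in 3 of the 6 (mean log2 difference -0.35, lower in the other 3), and cells with Timd4 held 0 to 7 UMIs of Gas6 and 0 to 15 of Pros1 per library, so the test says nothing of these 4 genes. Axl and Mertk did not pass the two-sided exact permutation test over libraries, whose smallest possible p is 0.031. The mean log2 difference of Axl was 0.14 (exact permutation p = 0.219, higher in 4 of 6 libraries). That of Mertk was -0.06 (exact permutation p = 0.875, higher in 3 of 6), with -1.60 on 2 UMIs in vehicle replicate 1, and 0.25 without that library (exact permutation p = 0.312). Unthinned, Axl was higher in 6 of 6 libraries by 0.14 (exact permutation p = 0.031, adjusted p = 0.188 over 6 genes).

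In macrophage-like cells as a whole, 6 of the 7 genes could be tested, and Timd4 and Gas6 were called higher and none lower, where 6.92% of 10064 genes were called higher and 6.66% lower. Timd4 rose from 44.0, 39.0 and 33.8 CPM to 363, 215 and 421 CPM, without overlap (log2 fold change 2.62, standard error 0.29, adjusted p = 0.00294 in edgeR). Gas6 rose from 7.1, 9.5 and 9.0 CPM to 37.6, 40.9 and 35.6 CPM, also without overlap (log2 fold change 1.67, standard error 0.25, adjusted p = 0.00566 in edgeR). Kupffer-like cells were 666 of 1174, 384 of 694 and 408 of 1095 of these cells with vehicle and 89 of 102, 234 of 239 and 514 of 550 with ginkgetin, and their part in the change of the whole was not tested. On replicates 1 and 2 only, Timd4 (2.40, edgeR adjusted p = 0.00609) and Gas6 (1.89, edgeR adjusted p = 0.0102) stayed called. Pros1 had an adjusted p of 0.0384 in edgeR at a log2 fold change of 0.77, under the fold limit. Axl (0.19, edgeR adjusted p = 0.532) and Mertk (0.25, edgeR adjusted p = 0.568) were not called. On library totals the median of all genes was 0.54 in place of 0.03, 91.2% of 2210 calls were higher against 51.0% of 1366, and Pros1 passed the call at 1.26 (edgeR adjusted p = 0.0065).

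Timd4 was close to absent from Trem2-high macrophage-like cells with vehicle, at 1.3, 0.7 and 1.0 CPM. With ginkgetin it was at 42.0 CPM in replicate 1, on 3 UMIs in 13 cells, and at 3.1 CPM in replicate 3, while replicate 2 had only 5 cells and was left out. Axl was plentiful there, at 379, 371 and 387 CPM against 392 and 663 CPM, and it was not called (log2 fold change 0.08). None of the 5 genes tested in these cells was called, where 0.183% of genes were called in either direction. Gas6, at 9.3, 14.6 and 11.4 CPM against 98.1 and 46.7 CPM, had a log2 fold change of 1.97 (adjusted p = 0.137 in edgeR). With the replicate number as a block Gas6 was called in these cells (2.07, edgeR adjusted p = 0.00522), beside endothelial marker sums of 35.5 to 71.7 CPM with vehicle and 168 to 364 CPM with ginkgetin, whose part in the result was not tested. That fit had only 5 libraries, so this block left little to estimate the spread between them.

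An unnamed cluster of 193 cells led by the cell cycle genes Stmn1, Ube2c and Birc5 also held macrophage genes. Timd4 was at 33.9, 8.1 and 26.2 CPM there with vehicle, and at 147 and 469 CPM in ginkgetin replicates 2 and 3, with ginkgetin replicate 1 left out for its 4 cells. It was called higher, with a log2 fold change of 3.34 (standard error 0.54, adjusted p = 0.00812 in edgeR), as 1 of 4 genes tested, where 3.11% of all genes were called in either direction. With ginkgetin replicate 1 left out, the fit was not repeated on replicates 1 and 2 only.

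In endothelial-like cells the call was on a ligand. Gas6 was at 78.4, 88.8 and 81.3 CPM with vehicle and 307, 259 and 417 CPM with ginkgetin, without overlap, and the means were 82.8 ± 5.32 and 328 ± 81.0 CPM (SD, n = 3). Its log2 fold change was 1.79 (standard error 0.22, adjusted p = 0.0233 in edgeR). It was the only one of the 5 genes tested there to be called, where 0.336% of 10116 genes were called higher and 0.593% lower. Leaving out any 1 of the 6 libraries ended this call, with log2 fold changes of 1.67 to 1.91 and adjusted p of 0.0516 to 0.133 in edgeR, whereas replicates 1 and 2 only gave 1.59 (edgeR adjusted p = 0.00642). Macrophage markers moved the other way in these cells, with sums of 319 to 691 CPM over 10 markers with vehicle and 86.5 to 260 CPM with ginkgetin. Without the cells that held 2 or more of them the log2 fold change of Gas6 was 1.79 (edgeR adjusted p = 0.0328).

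Mertk in endothelial-like cells was at 78.8, 73.3 and 122 CPM with vehicle and 132, 150 and 256 CPM with ginkgetin, which do not overlap. Its log2 fold change of 0.80 (standard error 0.22, adjusted p = 0.166 in edgeR) was not called. With the replicate number as a block it was 0.79 (edgeR adjusted p = 0.00858), still under the fold limit. Pros1 was at 283, 272 and 269 CPM against 355, 323 and 469 CPM, again without overlap, with a log2 fold change of 0.28 (adjusted p = 0.606 in edgeR). Axl had the opposite sign, at 16, 20.1 and 12.9 CPM against 8.8, 13.3 and 8.8 CPM (log2 fold change -0.80, edgeR adjusted p = 0.356), and Mfge8 overlapped at 110, 133 and 259 CPM against 110, 154 and 225 CPM. On library totals the median of all genes in endothelial-like cells was 0.15 in place of -0.01, with 34.4% of 32 calls higher against 36.2% of 94.

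As in the macrophages, different clusters held the endothelial-like cells of each group. Of the vehicle cells 77.6% were in a cluster led by Fabp4, Lyve1 and Ctgf and 19.6% in one led by Ednrb, Rapgef5 and Vwf, mostly of vehicle replicate 3. Of the ginkgetin cells 39.8% were in a cluster led by the pericentral genes Wnt2 and Kit, 39.5% in one led by Ntn4 and Ehd3, and 17.6% in one led by Bmp6 and Masp1, nearly all of ginkgetin replicate 3. Gas6 was at 80.2 and 103 CPM in the 2 vehicle-rich clusters and at 381, 156 and 456 CPM in the 3 ginkgetin-rich clusters. Mertk was at 77.7 and 113 CPM against 163, 128 and 281 CPM, and Pros1 at 276 and 275 CPM against 350, 316 and 496 CPM, so for all 3 genes each ginkgetin-rich cluster was above each vehicle-rich one.

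The difference between Kupffer-like and endothelial-like cells in the group effect was tested as an interaction, with the library as a block. Mertk differed, its log2 fold change in Kupffer-like cells minus that in endothelial-like cells being -0.82 (standard error 0.23, adjusted p = 0.0393 in edgeR), where 9.29% of 11005 genes passed the same adjusted p. On replicates 1 and 2 only it was -0.83 (edgeR adjusted p = 0.0182). The call was lost on library totals (-0.51, edgeR adjusted p = 0.105), without cells with markers of both classes (-0.74, edgeR adjusted p = 0.108) and with 250 to 5000 read as UMIs per cell (-0.88, edgeR adjusted p = 0.255). It was also lost without 3 of the 6 libraries. Leaving out the first vehicle library gave -0.87 (edgeR adjusted p = 0.109), leaving out the second gave -0.89 (0.0814) and leaving out ginkgetin replicate 2 gave -0.80 (0.0765). Gas6 (0.31, edgeR adjusted p = 0.612), Pros1 (0.22, edgeR adjusted p = 0.677) and Axl (0.89, edgeR adjusted p = 0.125) were not shown to differ between the 2 classes. For Axl this too depended on the setting, and it passed on library totals (1.19, edgeR adjusted p = 0.0215) and without ginkgetin replicate 2 (1.18, edgeR adjusted p = 0.0439). Mfge8 entered this fit only through endothelial-like cells, with 9, 7 and 9 UMIs against 0, 15 and 7 UMIs in Kupffer-like cells, and Timd4 only through Kupffer-like cells, with 0, 1 and 1 UMIs against 3, 15 and 10 UMIs in endothelial-like cells, so for neither gene can the classes be compared. The test of this difference was chosen after seeing the data.

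**Figure D4:**
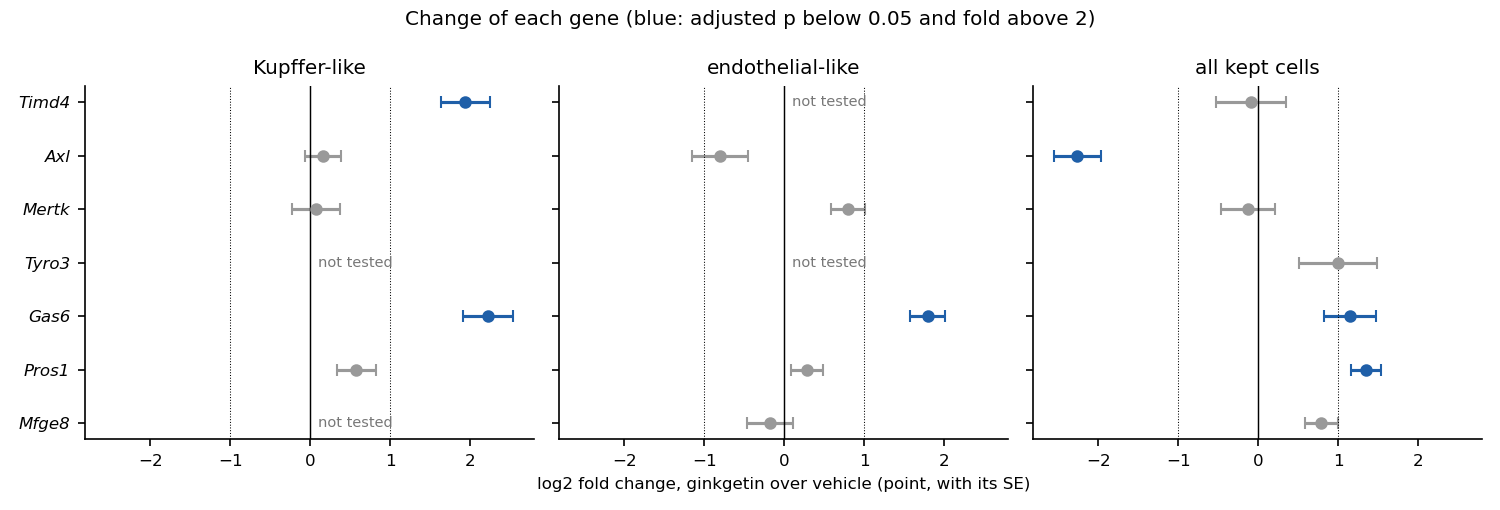
Log2 fold change of ginkgetin over vehicle (edgeR, TMM scaling) with its standard error for each gene tested in Kupffer-like cells, endothelial-like cells and all kept cells, with called genes in blue. Timd4 and Gas6 are called higher in Kupffer-like cells at 1.94 and 2.22, Gas6 in endothelial-like cells at 1.79, and Axl is called lower over all kept cells at -2.26.

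Over the other 10 classes, 24 tests of the 7 genes gave 1 call and 6 with an unadjusted p under 0.05 in edgeR. The call was Gas6 in stellate-like cells, the retinoid-storing pericytes of the sinusoid, at 186 and 628 CPM in vehicle replicates 2 and 3 and 37.9, 84.1 and 47.8 CPM with ginkgetin. Vehicle replicate 1 had 6 such cells, with 3 Gas6 UMIs (44.4 CPM, inside the ginkgetin range), and was left out of the fit. The log2 fold change was -2.83 (standard error 0.54, adjusted p = 0.0386 in edgeR), where 0.473% of genes were called in either direction. Leaving out vehicle replicate 3 gave -1.73 (edgeR adjusted p = 0.284), a fit with 1 vehicle library of 24 cells that is assumed to vary like the ginkgetin libraries, and leaving out ginkgetin replicate 1, 2 or 3 also ended the call (edgeR adjusted p of 0.165, 0.198 and 0.269). Naming each cell alone by its own markers gave -0.54 (edgeR adjusted p = 0.873), and Gas6 was also not called there without the highest doublet scores. No member of the 7 was called among 3 tested in cholangiocyte-like cells (0.871% of all genes called), 3 in hepatocyte-like cells (2.94%), 4 in T cell-like cells (0.108%) and 4 in monocyte-like cells (0.0%). The 7 genes had too few UMIs to be tested in NK cell-like cells (0.0281%), plasma cell-like cells (0.0366%), plasmacytoid dendritic-like cells (0.11%) and B cell-like cells (0.0%). In hepatocyte-like cells, which ginkgetin replicate 1 lacked, the log2 fold changes were 2.99 for Mfge8, 2.39 for Pros1 and 1.55 for Gas6, with adjusted p of 0.0897, 0.119 and 0.136 in edgeR. With the replicate number as a block the count of calls over these classes was 4, with Pros1 (2.0, edgeR adjusted p = 0.0445) and Mfge8 (2.58, edgeR adjusted p = 0.0296) called in hepatocyte-like cells and Gas6 called in stellate-like cells and Trem2-high macrophage-like cells. Each of these classes had only 5 libraries, so the fit with this block had little left to estimate the spread between libraries. Ginkgetin replicate 2 had 12 hepatocyte-like cells.

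Over all kept cells, where a gene's level also follows how many cells of each class were captured, Axl and the 2 TAM ligands moved in opposite directions. Axl was at 177, 178 and 224 CPM with vehicle and 32.9, 35.1 and 90.3 CPM with ginkgetin, without overlap (193 ± 27.1 against 52.8 ± 32.5 CPM, SD, n = 3). Its log2 fold change was -2.26 (standard error 0.30, adjusted p = 0.0034 in edgeR). Pros1 was at 48.9, 40.4 and 41.4 CPM against 98.6, 137 and 188 CPM (log2 fold change 1.34, standard error 0.19, adjusted p = 0.00411 in edgeR). Gas6 was at 66.2, 84.9 and 36.7 CPM against 154, 158 and 213 CPM (log2 fold change 1.15, standard error 0.32, adjusted p = 0.0438 in edgeR), and leaving out any 1 library ended its call. For these 3 genes the groups did not overlap.

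Of the 7 genes, 2 were called higher and 1 lower over all kept cells, where 7.17% of 14133 genes were called higher and 6.91% lower. Timd4 overlapped between the groups at 16.4, 14.2 and 15.7 CPM against 11.0, 8.4 and 39.3 CPM (log2 fold change -0.09, edgeR adjusted p = 0.897), although it was called higher within Kupffer-like cells. Without ginkgetin replicate 3 its log2 fold change was -0.86 (adjusted p = 0.0443 in edgeR), under the fold limit. Mertk (-0.13, edgeR adjusted p = 0.812), Tyro3 (1.0, edgeR adjusted p = 0.187) and Mfge8 (0.79, edgeR adjusted p = 0.0337, under the fold limit) were not called. Replicates 1 and 2 only gave log2 fold changes of -2.63 for Axl and 1.14 for Pros1, both called, and of 0.80 for Gas6. On library totals the median of all genes was 0.36 in place of 0.04, 75.2% of 2022 calls were higher against 50.9% of 1989, and Axl stayed called at -1.87, Gas6 at 1.49 and Pros1 at 1.70, while Mfge8 was then called at 1.13 (edgeR adjusted p = 0.0339). With 250 to 5000 read as a limit on UMIs per cell, Axl was at 0.20 (edgeR adjusted p = 0.903) and none of the 7 genes was called.

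The shares of the UMIs of Mertk, Axl, Gas6, Pros1 and Mfge8 that lay in each class differed between the groups, while the leading classes of Timd4 and Tyro3 had like shares in both. Kupffer-like cells held on average 50.6% of all Mertk UMIs with vehicle and 13.4% with ginkgetin, while endothelial-like cells held 11.6% and 80.2%. Timd4 came mainly from Kupffer-like cells in both groups (88.6% and 84.5%), and Tyro3 UMIs lay 33.7% and 38.1% in T cell-like and 34.1% and 28.4% in endothelial-like cells. For Axl, Kupffer-like cells held 44.2% and 53.2%, and Trem2-high macrophage-like cells 35.1% and 5.9%. Cholangiocyte-like cells held 62.7% of Gas6 UMIs with vehicle and 30.9% with ginkgetin, against 11.8% and 58.6% in endothelial-like cells. Pros1 UMIs lay 49.8% and 86.4% in endothelial-like cells, and Mfge8 UMIs 31.7% and 57.4%.

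**Figure D5:**
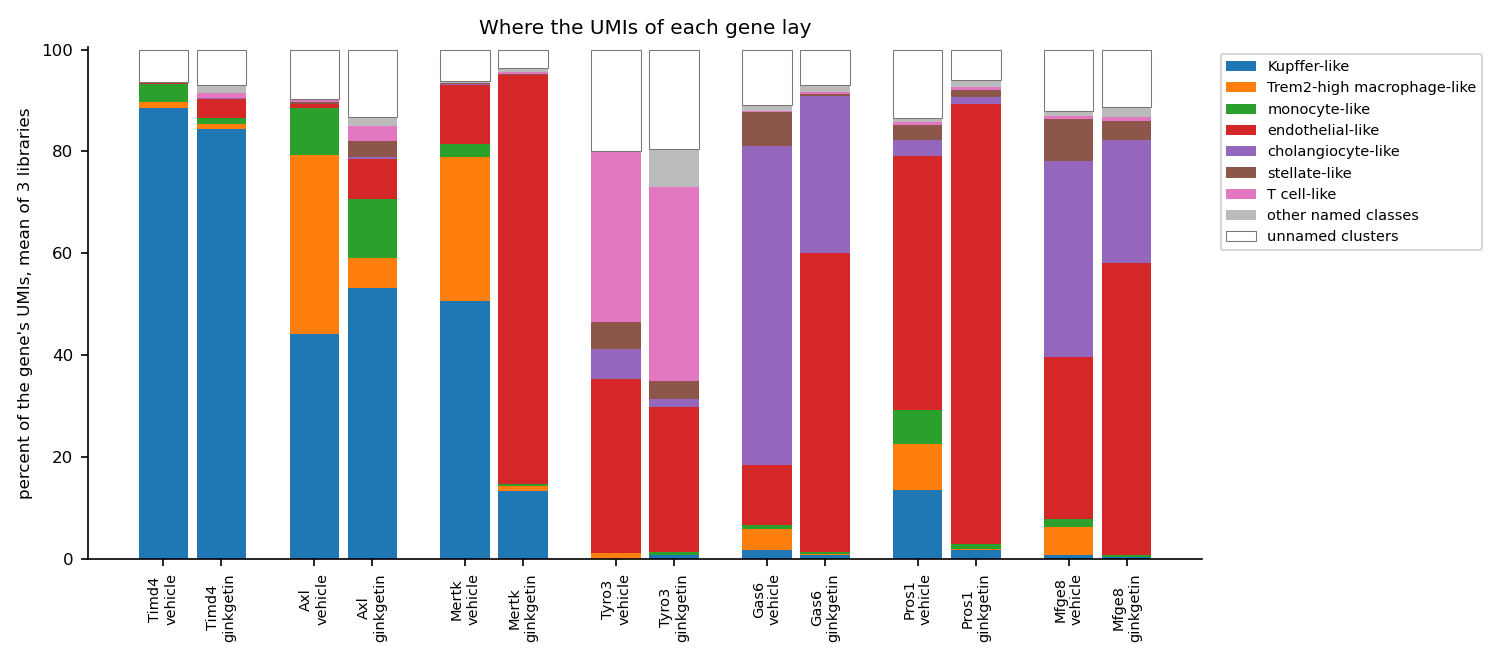
Share of each gene's UMIs (%) by cell class, as stacked bars of the mean of 3 libraries for vehicle and ginkgetin. Endothelial-like cells hold 11.6% of Mertk UMIs with vehicle and 80.2% with ginkgetin, and 11.8% and 58.6% of Gas6 UMIs.

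Set against each other, the TAM receptors summed to 231, 225 and 314 CPM over all kept cells with vehicle and 73.0, 98.7 and 217 CPM with ginkgetin. These sums, here and within classes below, set Pros1 against Axl too, although AXL is bridged by GAS6 only. Gas6 and Pros1 summed to 115, 125 and 78.1 CPM against 252, 295 and 401 CPM. The 2 ligands were thus 33.3, 35.8 and 19.9% of the sum of receptors and ligands with vehicle and 77.6, 75.0 and 64.9% with ginkgetin, with no overlap between the groups. Axl made up 75.6% of TAM receptor UMIs with vehicle (71.4 to 79.0%) and 40.8% with ginkgetin (35.6 to 45.0%). Within Kupffer-like cells Axl made up 73.3% and 74.9% on average, and within endothelial-like cells 15.6% and 5.86%. The shares over all kept cells also follow how many cells of each class were captured, and that part was not tested.

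Within classes the ligand share moved in both directions. Kupffer-like cells were on the receptor side in both groups, with the ligands at 4.65 to 6.61% of the sum with vehicle and 7.01 to 12.2% with ginkgetin, without overlap. Endothelial-like cells were on the ligand side, at 72.0 to 79.2% and 76.9 to 82.4%, with overlap. In stellate-like cells the ligand share was lower with ginkgetin, at 73.7 and 83.5% against 45.0 to 61.0%, without overlap. In T cell-like cells, with ligand sums of 4.47 to 28.4 CPM, it was 31.3, 21.1 and 32.4% with vehicle and 40.0, 70.5 and 37.5% with ginkgetin, also without overlap and in the direction of the Kupffer-like cells. In plasmacytoid dendritic-like cells, where the ligand sum was at most 11.5 CPM with vehicle and 35.9 CPM with ginkgetin, it was 28.6 to 60.0% against 68.7 to 100%. Among the ligands, Gas6 made up 12.2 to 14.5% of Gas6 and Pros1 UMIs in Kupffer-like cells with vehicle and 31.6 to 34.2% with ginkgetin. In endothelial-like cells it made up 21.7 to 24.6% and 44.5 to 47.1%, again without overlap. Cholangiocyte-like cells had mean TAM receptor sums of 7.12 and 5.34 CPM and ligand sums of 1316 and 1451 CPM.

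The wider efferocytosis list held 54 further genes, of which 51 were in the tables. In Kupffer-like cells 44 were tested, 1 was called higher and 2 lower, where 4.81% of all genes were called higher and 4.46% lower, so the lower calls were near the share over all genes. The median log2 fold change was -0.03 beside 0.05 over all genes tested. Gpr132, a receptor for lysophospholipid signals of dying cells, was higher at 1.8, 2.8 and 2.1 CPM against 8.1, 18.5 and 8.5 CPM (log2 fold change 1.99), on 13, 8 and 16 UMIs against 2, 12 and 15 UMIs. Cd36, a scavenger receptor and fatty acid transporter, fell from 425, 310 and 465 CPM to 137, 127 and 264 CPM (-1.59), and Pparg, a lipid-sensing nuclear receptor, from 30.9, 25.2 and 36.9 CPM to 4.0, 17.0 and 10.3 CPM (-1.89). None of these 3 genes overlapped between the groups, although the Pparg value of ginkgetin replicate 1 rests on 1 UMI.

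In macrophage-like cells 47 of the list were tested, 5 were called higher and 3 lower, beside 6.92% and 6.66% of all genes, so the lower calls were near the share over all genes, and the median was 0.01 beside 0.03 over all genes. Higher were the kinase gene Ptk2 (1.47), the nuclear receptor partner Rxra (1.33), the phosphatidylserine receptors Stab2 (1.13) and Cd300lf (1.09), and, outside the limit of 4 named genes and named after its value was seen, the engulfment gene Dock1 (1.06). Of these, Stab2, Ptk2 and Dock1 were more abundant in endothelial-like than in macrophage-like cells in every library. Ptk2 was at 57.9 to 152 CPM in the former and 4.6 to 32.3 CPM in the latter, Dock1 at 67.9 to 147 CPM and 7.1 to 31.3 CPM, and Stab2 at 537 to 1014 CPM and 38.8 to 164 CPM. Endothelial markers were higher in the Kupffer-like cells of the ginkgetin libraries as given above, and their part in these 3 values was not tested. Rxra was at 37.6 to 121 CPM in endothelial-like and 43.2 to 265 CPM in macrophage-like cells, and Cd300lf was at most 2.6 CPM in endothelial-like cells. Lower were Pparg (-2.35), Cd36 (-1.58) and P2ry6 (-1.01), a receptor for nucleotides released by dying cells. In endothelial-like cells 42 were tested, none was called higher and 4 lower, beside 0.336% and 0.593% of all genes: Odc1 (-2.84), the cholesterol exporter Abca1 (-2.79), Pparg (-2.07) and the integrin Itgb3 (-1.47), at a median of 0.00 beside -0.01. Abca1 fell from 187, 147 and 292 CPM to 23.1, 32.8 and 44.4 CPM, and Odc1 from 221, 121 and 160 CPM to 26.6, 30 and 22.2 CPM, both without overlap. Over all kept cells 4 of 51 were called higher and 17 lower, beside 7.17% and 6.91% of all genes, at a median of -0.41 beside 0.04. Macrophage-like cells were 19.5, 20.8 and 26.5% of the kept cells with vehicle and 2.92, 3.45 and 15.1% with ginkgetin, and their part in these counts was not tested.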

How the data were processed

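Single-cell libraries of liver non-parenchymal cells (3 vehicle, 3 ginkgetin) were analysed from tables of raw UMI counts per gene and barcode deposited by the authors. The submitters' processing notes name GRCm38 and mm10; the aligner, the counter and the annotation are not given in the sources used here. Every deposited barcode had at least 501 genes detected, so barcodes had been filtered before deposit. The extraction and library protocol in the labels describes a kit for total RNA, while the study's methods and the label of each sample name 10x Genomics.

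The third library of each group used other gene symbols and another barcode format than the rest. Of 19349 genes per table, 297 older symbols were merged and 383 genes seen in 1 of the 2 symbol sets were dropped, which left 18669. The study's limit of 250 to 5000 UMIs per cell was read as genes per cell, with under 5% mitochondrial UMIs, and kept 27544 of 33168 barcodes; read as UMIs it kept 16821, and the study's own count of cells lies between these. Cells were clustered with scanpy 1.11.5 and leidenalg 0.10.2 (2000 variable genes, 30 components, 15 neighbours, resolution 1, 0.5 within macrophages; Python 3.11.15), leaving out 58 genes, the 7 described and the wider efferocytosis list. Clusters were named where more than 0.5 of a class's markers, and at least 3, were detected in 25% of cells at a fold over 2, limits that were set after seeing the data. Of 38 clusters, 15 stayed unnamed (22.2% of kept cells). Scrublet called at most 0.220% of a library's cells doublets and so has not worked, and no doublets were removed.

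UMIs were summed per library and class with at least 10 cells and tested with edgeR 4.0.16 (R 4.3.3; filterByExpr, TMM, quasi-likelihood test, with the treatment group and no other term), with p-values adjusted over all genes tested. The interaction fit had library as a block. The script was tested on simulated counts. The third libraries of the 2 groups deviated together, with correlations of 0.508, 0.507 and 0.777 in macrophage-like, Kupffer-like and endothelial-like cells. Numbers 1 and 2 were not seen to pair. Vehicle replicate 2 gave 0.200, 0.185 and 0.411 with ginkgetin replicate 1, against 0.160, 0.148 and 0.347 with ginkgetin replicate 2. A fit with the replicate number as a block was run as an alternative, and it assumes a pairing that these values show for replicate 3 only. Exact permutation tests used scipy 1.17.1. Intervals and limits cover counting error only. Alternatives were the replicate block, a block of the 2 symbol sets, replicates 1 and 2 only, leaving out each library, other normalizations, DESeq2 1.42.0, no gene filter, other cell filters, doublet scores, clustering with the 7 genes, and naming each cell alone. Positions are from GENCODE vM21. The genes named were all 7, at most 4 per direction and class of the wider list by fold, and the 3 most alike per gene. The genes, lists and markers were chosen with earlier results of these data known.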

Additional observations from a re-analysis of the deposited data

Results flagged for a closer look

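Mertk, the TAM receptor gene shared by macrophages and sinusoidal endothelium, drew attention because its response to ginkgetin differed between the 2 classes by a test of the difference itself. The log2 fold change was 0.08 in Kupffer-like cells and 0.80 in endothelial-like cells, and the interaction was -0.82 (SE 0.23, edgeR adjusted p = 0.0393). Of the 11005 genes in that fit, 9.29% passed the same adjusted p, so such a difference was not rare. This test was chosen after seeing the data. The call was lost on library totals (-0.51, edgeR adjusted p = 0.105) and without cells with markers of both classes (-0.74, edgeR adjusted p = 0.108). It was also lost with 250 to 5000 read as UMIs per cell (-0.88, edgeR adjusted p = 0.255) and without 3 of the 6 single libraries (-0.89 to -0.80, edgeR adjusted p of 0.0765 to 0.109). On replicates 1 and 2 only it was kept (-0.83, edgeR adjusted p = 0.0182). Per library the levels were 147, 142 and 245 CPM against 157, 199 and 385 CPM in Kupffer-like cells, and 78.8, 73.3 and 122 CPM against 132, 150 and 256 CPM in endothelial-like cells. The vehicle and ginkgetin cells of either class came mainly from different clusters, and their part in the difference was not tested.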

How the results depend on the processing

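Over 448 values of single genes under an alternative, 397 kept their direction and their side of the threshold, 24 lost a call, 3 gained one and 24 changed sign, 23 of these called in neither fit. This tally covers macrophage-like, Kupffer-like and endothelial-like cells, all kept cells, and Gas6 in stellate-like cells. Other values of the other classes, with the calls gained there, are outside it. Timd4 stayed called in Kupffer-like cells under every alternative run, library totals included (log2 fold change 1.76 to 2.35), and without any 1 library (1.66 to 2.17). With 250 to 5000 read as UMIs per cell, 1 gene was called in macrophage-like cells (Gas6 was at 1.30, edgeR adjusted p = 0.114), 1 in Kupffer-like cells (Gas6 could not be tested there), 0 over all kept cells and 0 in the other classes, Axl over all kept cells reversed to 0.20, and the Mertk interaction was -0.88 and lost its call. The interaction also lost its call without cells with markers of both classes (-0.74), on library totals (-0.51) and without 3 single libraries (-0.95 to -0.80 over all 6). The sign changes among uncalled values were as follows. Mfge8 in macrophage-like cells (-0.24) was 0.29 on library totals, 0.42 on replicates 1 and 2 only, 0.46 with cells named alone and -1.72 to 0.48 without 1 library. Mertk in Kupffer-like cells (0.08) was -0.069 with no gene filter, -0.047 on replicates 1 and 2 only and -0.32 to 0.26 without 1 library. Over all kept cells Timd4 (-0.09) was 0.35 on library totals, 2.91 with the UMI reading and -0.86 to 0.21 without 1 library, Mertk (-0.13) was 0.25 on library totals, 1.21 with the UMI reading, 0.028 with no cell filter and -0.52 to 0.14 without 1 library, and Tyro3 (1.0) was -0.47 with the UMI reading. Without 1 library, Mertk in macrophage-like cells (0.25) was -0.12 to 0.42 and Mfge8 in endothelial-like cells (-0.18) -0.36 to 0.11. Leaving out 1 library left 0 to 0 calls in endothelial-like cells and 0 to 1 in the other classes. Calls in the other classes were 4 with the replicate block, 2 with the symbol-set block, 2 with DESeq2, 3 with no gene filter, and 0 on replicates 1 and 2 only, without the highest doublet scores or with cells named alone. The replicate block changed no other call of the 7 genes, and the causes were not tested. The share of Kupffer-like cells with a Timd4 UMI differed by 21.4 to 37.6 percentage points.

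Of all genes, 94 were called in endothelial-like cells, against 432 with the replicate block, 450 with the symbol-set block, 289 with DESeq2, 334 on replicates 1 and 2 only, 153 with no cell filter, 147 with no gene filter, 61 with cells named alone, 32 on library totals and 0 to 36 without 1 library. In Kupffer-like cells 838 were called, against 1269 with the symbol-set block, 1409 with no gene filter, 50 with the UMI reading and 208 to 1310 without 1 library. In macrophage-like cells 1366 were called, against 367 with the UMI reading, 802 with cells named alone and 632 to 1709 without 1 library, and over all kept cells 1989, against 0 with the UMI reading and 1223 to 2026 without 1 library. Gas6 in Kupffer-like cells rests on 5 UMIs in ginkgetin replicate 1, and Tyro3 was too sparse for a comparison within macrophages.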
